A study of Homo sapiens with 12 samples.

Results

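ZNF503 (ENSG00000165655.17, chromosome 10) and ZNF703 (ENSG00000183779.7, chromosome 8) are the human members of the NET family of zinc finger repressors. They are 2 of the 60662 genes in the RNA count files, and both were found by symbol in the count files and in the table of footprints and translational efficiency, which lists 12224 genes. Both passed the filter on low RNA counts, which kept 17807 genes, and the filter on low footprint reads, which kept 10906. They were chosen because earlier work on these data had placed them among the largest RNA increases, so their own changes between STM2457 and DMSO are given as a description, without a test.

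The cells were HEK293T, an established human embryonic kidney line with wild-type genotype. STM2457, which blocks METTL3, the enzyme that writes m6A, was given at 20 µM in 0.2% DMSO for 6 h, and control cells had 0.2% DMSO alone for the same time. All cells were given an extra 10% of serum 1 h before lysis, and cycloheximide, which stalls elongating ribosomes, at 100 µg/ml for the last 3 min, so both arms share the serum stimulus. Poly(A)-selected, strand-specific RNA-seq was done on 4 STM2457 and 4 DMSO replicates, and ribosome profiling of 26 to 34 nt footprints on 2 STM2457 and 2 DMSO replicates. The labels do not say whether replicates came from separate cultures. The p-values therefore rest on library-to-library spread, which may be technical.

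NET proteins take their name from the fly genes no ocelli and elbow and the worm gene tlp-1. They carry an atypical C2H2 zinc finger and a short SP motif shared with the SP factors, and they act in the nucleus as transcriptional repressors that recruit Groucho/TLE corepressors and histone deacetylases. ZNF503, known in the mouse as Nolz1, marks developing striatum, limb and hindbrain, and ZNF703 lies in a breast cancer amplicon and is overexpressed in luminal tumours. The m6A mark is placed on mRNA by the METTL3 and METTL14 complex and is read by YTH proteins, among them YTHDF2, which brings decay factors to marked mRNAs.

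Each RNA-seq library held between 43291730 and 51645739 counts, and the footprint reads recovered from the table numbered 3198063 to 4711513 per library. The 7 markers associated with HEK293 cells all had at least 10 counts in every library, with a summed level of 925 to 967 CPM (counts scaled to library size with TMM factors) in STM2457 libraries and 924 to 958 CPM in DMSO libraries. Of these, PAX2 was low, at 3.53 to 5.85 CPM. Summed markers of other cells were at 17.7 to 19.5 CPM (fibroblast, STM2457) and 17.2 to 21.7 CPM (fibroblast, DMSO), 7.08 to 8.36 and 7.68 to 8.84 CPM for epithelial carcinoma in STM2457 and DMSO, and at most 2.33 and 2.40 CPM for blood in STM2457 and DMSO. KRT5, KRT19 and HBB had no count in any library, and PTPRC had at most 1 count.

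The stretch just before the ZNF503 start is shown because an antisense gene, ZNF503-AS2, starts on the opposite strand around it, and the antisense RNA serves below as a comparison from the same locus. The sequence covers the 250 bases before the ZNF503 start (RefSeq, GRCh38.p14, chr10:75401917-75402166, minus strand, read toward the gene), and the capitals mark the match to a GC box.
ZNF503 promoter: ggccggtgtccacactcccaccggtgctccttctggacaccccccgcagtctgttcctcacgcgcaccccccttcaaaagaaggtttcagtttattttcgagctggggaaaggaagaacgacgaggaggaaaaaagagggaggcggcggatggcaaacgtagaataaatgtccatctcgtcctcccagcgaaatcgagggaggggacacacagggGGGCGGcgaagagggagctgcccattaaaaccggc
The GC box, searched as GGGCGG on both strands, has 1 match, 35 bases before the start, and 42.6% of the 35116 RefSeq windows of the same length hold at least 1. No match was found in this window for TATAAA (in 10.7% of windows), TGANTCA (6.57%), CACGTG (6.34%), TGACGTCA (1.65%) or the CArG box (1.16%), each searched on both strands and none overlapping the GC box. The window is 58.4% G and C, against a median of 58.0% over all windows. Of the 6 annotated ZNF503-AS2 starts, 1 lies 388 bases inside ZNF503 on the opposite strand, and the other 5 lie 981 to 2249 bases upstream and point away from it. Sequence of ZNF703 was not used here.

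ZNF503 RNA was higher in every STM2457 library than in any DMSO library. It stood at 1035, 1002, 1015 and 1004 CPM in STM2457 replicates 1 to 4, against 273, 284, 279 and 297 CPM in DMSO replicates 1 to 4. The STM2457 libraries differed from each other by little, with a coefficient of variation of 1.48%, and the lowest of them was 3.37-fold above the highest DMSO library. The mean was 1014 ± 15.0 CPM in STM2457 and 283 ± 10.4 CPM in DMSO (SD, n = 4 each), a log2 fold change of 1.84 (SE 0.028, edgeR), or 3.58-fold. Behind these values are 43199 to 50988 deposited counts per STM2457 library and 13182 to 15301 per DMSO library.

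ZNF703 RNA was also higher in every STM2457 library. It measured 1248, 1226, 1162 and 1208 CPM in STM2457 replicates 1 to 4, against 383, 383, 378 and 415 CPM in DMSO replicates 1 to 4. DMSO replicate 4 stood above the other DMSO libraries, and the lowest STM2457 library was still 2.80-fold above it. The mean was 1211 ± 36.6 CPM in STM2457 and 390 ± 16.9 CPM in DMSO (SD, n = 4 each), a log2 fold change of 1.64 (SE 0.033, edgeR), or 3.11-fold. In bulk RNA, more cells with the transcript and more transcript per cell cannot be told apart. All STM2457 libraries lay above all DMSO libraries for 24.9% of the 17807 genes tested, and 0.281% of these genes rose at least 3-fold, as both members did, a contrast used in choosing them.

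**Figure D1:**
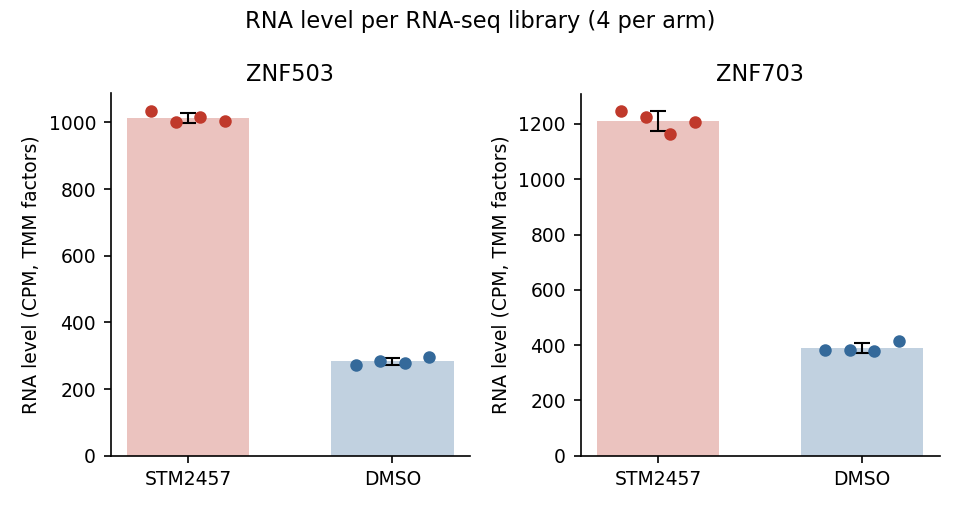
RNA level of ZNF503 and ZNF703 in CPM (vertical axis, from 0) in STM2457 and DMSO libraries; points are the 4 libraries per arm, bars their mean and whiskers the SD. STM2457 libraries sit at 1002 to 1035 CPM for ZNF503 and 1162 to 1248 CPM for ZNF703, above the DMSO libraries at 273 to 297 and 378 to 415 CPM.

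Deviations from the arm means were shared within replicates 1 and 2 and within replicates 3 and 4 across the arms, and both sets hold 2 libraries per arm. With replicates 1 and 2 only, ZNF503 had a log2 fold change of 1.86 and ZNF703 of 1.68, and with replicates 3 and 4 only the values were 1.81 and 1.58.

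These RNA changes are relative to TMM scaling, which assumes that most genes do not move. Scaled instead by the ERCC spike-in RNAs, ZNF503 had a log2 fold change of 1.65 (SE 0.054) and ZNF703 of 1.44 (SE 0.054), while the median of all genes shifted to -0.19. With this scaling edgeR called 12.1% of genes higher and 47.1% lower. Among all 17807 genes ZNF503 ranked 28 and ZNF703 ranked 43 from the largest increase with TMM scaling. Among the 396 tested genes with a ZNF number as symbol they ranked 1 and 2, followed by ZNF329 (log2 fold change 1.38), ZNF628 (1.28) and ZNF48 (1.15). These ranks come from the contrast used in choosing both members, so high ranks follow in part from the choice.

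The ratio between the counts of both genes was also read in each library. There were 0.838 ± 0.025 ZNF503 counts for each ZNF703 count in STM2457 libraries (range 0.817 to 0.874), against 0.727 ± 0.014 in DMSO libraries (range 0.713 to 0.740; SD, n = 4 each). The arms did not overlap in this ratio, which restates the larger RNA increase of ZNF503 in the contrast used in choosing both genes. How often other pairs of genes separate in this way was not tested. Because transcript lengths were not used, the ratio says which way the balance moved and not which gene has more molecules.

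The table of the series gives a separate RNA signal, normalized by the authors, whose counted region is not given in the sources used here. On that signal ZNF503 averaged 16783 ± 147 in STM2457 and 4961 ± 146 in DMSO, which is 3.38-fold. ZNF703 averaged 12779 ± 507 in STM2457 and 4408 ± 263 in DMSO (SD, n = 4 each), which is 2.90-fold. The fold changes were therefore close to those from the deposited counts, and slightly smaller for both genes.

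Ribosome footprints of ZNF503 were higher with STM2457, as its RNA was. Footprint changes are relative to the authors' normalization, with a median of -0.025 in log2 over all genes tested. No spike-in scaling was run for footprints. The normalized footprint signal was 34737 and 42616 in STM2457 replicates 1 and 2, against 11464 and 11326 in DMSO replicates 1 and 2. The DMSO libraries were nearly equal, whereas the STM2457 libraries stood apart from each other, and the arms did not overlap. The log2 fold change was 1.76 (SE 0.080, limma on log2(signal + 1); 95% interval 1.59 to 1.92), from 9146 and 10915 recovered reads in STM2457 libraries and 3562 and 2350 in DMSO libraries.

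ZNF703 footprints followed the same order. The signal was 22439 and 28483 in STM2457 replicates 1 and 2, against 8072 and 8608 in DMSO replicates 1 and 2. Replicate 2 was the higher STM2457 library for both genes. The log2 fold change was 1.60 (SE 0.085, limma; 95% interval 1.43 to 1.77), from 5908 and 7295 recovered reads in STM2457 libraries and 2508 and 1786 in DMSO libraries. Both STM2457 libraries lay above both DMSO libraries for 25.7% of the 10906 genes tested, and 0.275% of them rose at least 3-fold. From the largest increase, ZNF503 ranked 21 and ZNF703 ranked 30 among these genes, and 2 and 3 among the 296 ZNF genes tested.

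**Figure D2:**
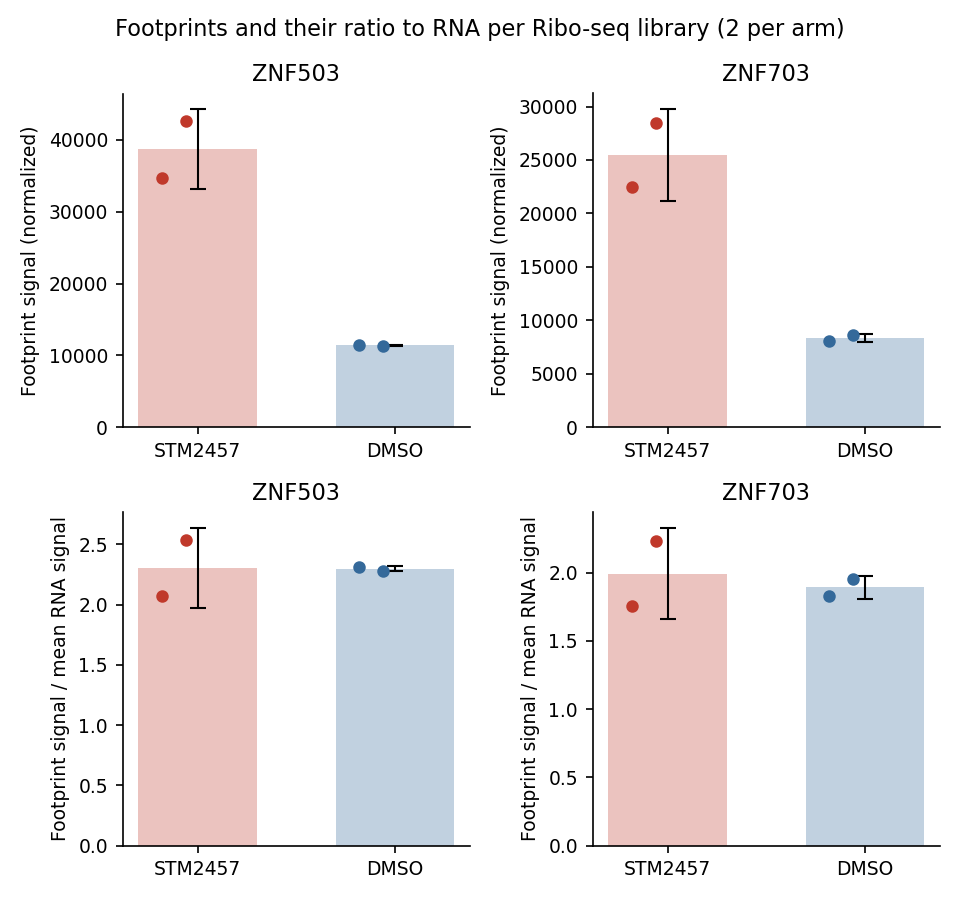
Normalized footprint signal (upper row) and footprint signal divided by the mean RNA signal of the arm (lower row) of ZNF503 and ZNF703; points are the 2 Ribo-seq libraries per arm, bars their mean and whiskers the SD. The footprint signals do not overlap between arms, whereas the ratios of STM2457 libraries (2.07 and 2.54 for ZNF503, 1.76 and 2.23 for ZNF703) lie on both sides of those of DMSO libraries.

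Translational efficiency, the footprint signal relative to the RNA signal, differed between the arms by less than the spread between libraries. For ZNF503 the ratio of footprint signal to the arm's mean RNA signal was 2.07 and 2.54 in STM2457 replicates 1 and 2, against 2.31 and 2.28 in DMSO replicates 1 and 2. For ZNF703 it was 1.76 and 2.23 in STM2457, against 1.83 and 1.95 in DMSO. In both genes the STM2457 libraries enclosed the DMSO libraries. The log2 change of efficiency was -0.0029 (SE 0.10, limma with a weight per assay) for ZNF503, with a 95% interval of -0.22 to 0.22, and 0.064 (SE 0.16) for ZNF703, with a 95% interval of -0.27 to 0.40. Changes of efficiency inside these intervals were not detectable with 2 footprint libraries per arm. Of the 10906 genes tested, 1.04% passed the efficiency test in either direction at an adjusted p under 0.05.

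**Figure D3:**
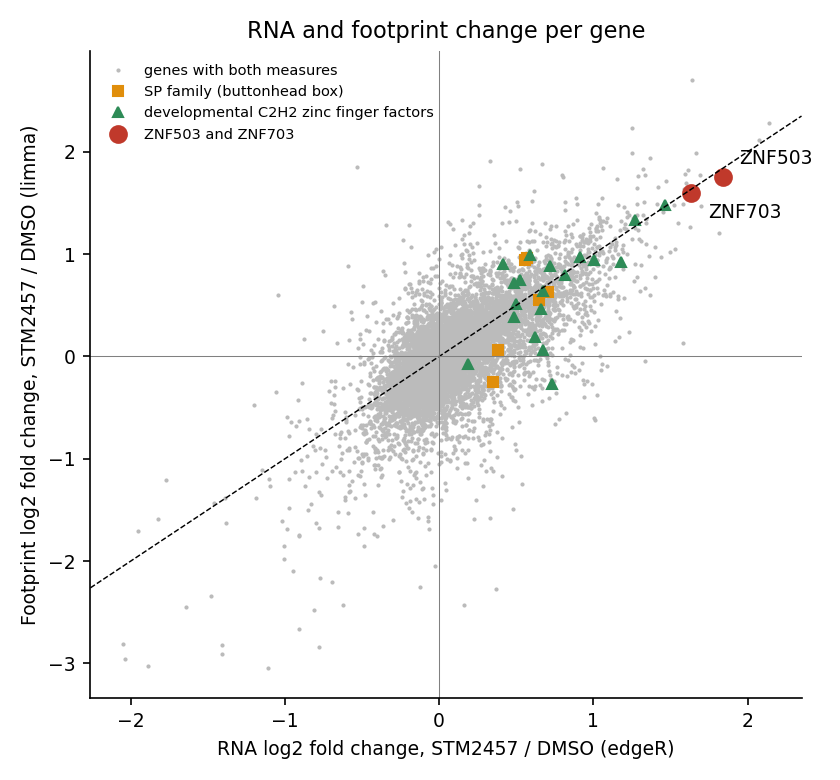
RNA log2 fold change (horizontal axis, edgeR) against footprint log2 fold change (vertical axis, limma), STM2457 over DMSO, for each gene with both measures; the dashed line marks equal change. ZNF503 (1.84 and 1.76) and ZNF703 (1.64 and 1.60) lie close to the line at the upper right, with ZIC2 (1.47 and 1.48) and SNAI2 (1.27 and 1.33) the next of the marked developmental zinc finger genes.

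Both mRNAs had a high efficiency without the inhibitor, a level the choice of the genes did not use. In the authors' deposited table, ZNF503 had an efficiency of 2.31 with STM2457 and 2.32 with DMSO, a log2 change of -0.01. In the authors' deposited table, ZNF703 had 1.97 with STM2457 and 1.95 with DMSO, a log2 change of 0.02. The DMSO value of ZNF503 exceeded that of 95.7% of the 12224 genes in the authors' deposited table, and that of ZNF703 exceeded 91.3%. For each of the 12224 genes the table's mean RNA signal is that of replicates 1 to 3, so RNA-seq replicate 4 does not enter these ratios.

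Most other ZNF genes had a lower efficiency by the same measure. In the authors' deposited table, the 359 other genes whose symbol is ZNF and a number alone had a median efficiency of 0.556 in DMSO, with quartiles of 0.382 and 0.836, against a median of 1.01 over all genes. Only ZNF460, ZNF483 and ZNF892 of these 359 had a higher efficiency in DMSO than either ZNF503 or ZNF703 in the authors' deposited table. Symbols that end in a letter are outside this count, and among them ZNF280C, at 2.24 in the authors' deposited table, lay between ZNF503 and ZNF703. A high efficiency was not particular to ZNF503 and ZNF703 among zinc finger factors. Of the developmental factors read below, ZIC2 was at 2.54 in the authors' deposited table, above both, and SNAI2 at 1.15, below both. The developmental factors were not compared as a set. Efficiency is a ratio within a gene. The region counted for its RNA signal is not given in the sources used here, and an effect of transcript length was not tested.

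**Figure D4:**
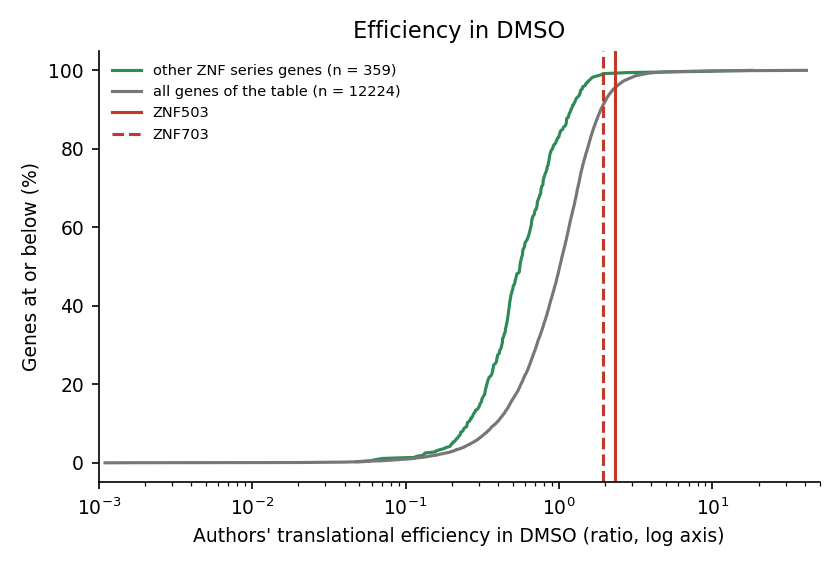
Cumulative share of genes (vertical axis, percent) by the authors' translational efficiency in DMSO (horizontal axis, ratio, log scale), for the 359 other ZNF genes and all 12224 genes of the table. The vertical lines at 2.32 (ZNF503, solid) and 1.95 (ZNF703, dashed) lie far to the right of the ZNF curve, whose median is 0.556.

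Of the 2 antisense RNAs of the ZNF503 locus, edgeR called 0, DESeq2 0 and an unadjusted p under 0.05 also 0. ZNF503-AS2 measured 21.2, 19.6, 24.0 and 20.1 CPM in STM2457 replicates 1 to 4, against 20.8, 20.9, 21.1 and 21.4 CPM in DMSO replicates 1 to 4. The arms overlapped, with a difference of 0.012 in log2 (SE 0.058, edgeR adjusted p = 0.883). ZNF503-AS1, with 1.27 ± 0.198 CPM in STM2457 and 1.22 ± 0.204 CPM in DMSO (SD, n = 4 each), differed by 0.066 in log2 (SE 0.15, edgeR adjusted p = 0.762). With ERCC scaling ZNF503-AS2 turned to -0.18 (edgeR adjusted p = 0.0485), beside -0.19 for the median gene, and this call was lost without STM2457 replicate 4 (edgeR adjusted p = 0.190). The libraries were strand-specific, but whether the counting used strand is not given in the sources used here, so reads of overlapping antisense genes may not be fully separated.

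Of the 12 nearest annotated genes, 3 on each side of each member, 5 matched a gene of the count files and the other 7 carry only locus numbers. At an adjusted p under 0.05 over all genes, edgeR called 26.2% of genes higher and 21.6% lower. Of the 5, edgeR called 0 higher and 2 lower with STM2457, as did DESeq2 and an unadjusted p under 0.05. ERCC scaling gave 0 higher and 4 lower, beside 12.1% and 47.1% of all genes, with the median gene at -0.19 in log2. ERLIN2, an endoplasmic reticulum protein gene beside ZNF703, fell to 75.5 ± 2.97 CPM in STM2457, against 84.3 ± 1.98 CPM in DMSO (SD, n = 4 each), or -0.16 in log2 (edgeR adjusted p = 0.00147). VDAC2, a channel of the outer mitochondrial membrane near ZNF503, was at -0.063 in log2 (edgeR adjusted p = 0.0398), a call that was lost on leaving out any single one of STM2457 replicates 1, 3 and 4 and DMSO replicates 1 to 4, with edgeR adjusted p of 0.0622 to 0.103. COMTD1, a predicted methyltransferase gene, was at -0.078 in log2 (edgeR adjusted p = 0.435), and at -0.27 with ERCC scaling (edgeR adjusted p = 0.00363).

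Groucho/TLE genes encode the corepressors through which NET proteins act. Of 6 tested, 2 rose and 0 fell, where edgeR called 26.2% of all genes higher and 21.6% lower. Their median was 0.10 in log2, beside 0.0025 over all genes tested. With ERCC scaling 1 was called higher and 3 lower (median -0.090), beside 12.1% and 47.1% of all genes. TLE3 rose by 0.39 (SE 0.033, edgeR adjusted p = 7.45e-07), with 168 ± 3.18 CPM in STM2457 and 128 ± 6.03 CPM in DMSO (SD, n = 4 each). TLE1 rose by 0.15 (SE 0.036, edgeR adjusted p = 0.00313) but turned to -0.039 with ERCC scaling (0.013 without STM2457 replicate 4). TLE5, a short family member that lacks the WD40 repeats, was at -0.018 (edgeR adjusted p = 0.704), TLE4 at 0.055 (edgeR adjusted p = 0.230) and TLE2 at -0.16 (edgeR adjusted p = 0.263), but with ERCC scaling TLE5 (-0.21, edgeR adjusted p = 0.00135), TLE4 (-0.14, edgeR adjusted p = 0.0345) and TLE2 (-0.35, edgeR adjusted p = 0.0137) were called lower. Without STM2457 replicate 4 the ERCC-scaled calls of TLE4 (edgeR adjusted p = 0.114) and TLE2 (edgeR adjusted p = 0.0711) were lost.

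Of 9 histone deacetylase and corepressor genes tested, 2 rose and 3 fell, where edgeR called 26.2% of all genes higher and 21.6% lower. The list's median was -0.050 in log2, beside 0.0025 over all genes tested. With ERCC scaling 2 were called higher and 6 lower (median -0.25), beside 12.1% and 47.1% of all genes. SIN3A, a deacetylase scaffold, rose by 0.46 (edgeR adjusted p = 8.69e-08) and TBL1X, a subunit of the NCoR complex, by 0.38 (edgeR adjusted p = 6.56e-07), whereas NCOR1 fell by 0.37 (edgeR adjusted p = 2.61e-06) and RCOR1 by 0.17 (edgeR adjusted p = 0.00119). HDAC1 (log2 fold change 0.042, edgeR adjusted p = 0.205) and HDAC2 (-0.065, edgeR adjusted p = 0.0928) did not pass, but with ERCC scaling HDAC1 (-0.15, edgeR adjusted p = 0.0146) and HDAC2 (-0.26, edgeR adjusted p = 8.95e-05) were called lower. In footprints, tested by limma, SIN3A rose by 0.35 (adjusted p = 0.0080), NCOR1 fell by 0.66 (adjusted p = 2.31e-05) and GPS2, another subunit of the NCoR complex, fell by 0.55 (adjusted p = 0.00911). The log2 change of GPS2 efficiency was -0.15 (limma adjusted p = 0.910), which rests on the authors' RNA signal. In the deposited counts GPS2 RNA was low, at 2.32 ± 0.292 CPM in STM2457 and 2.14 ± 0.821 CPM in DMSO (SD). Its RNA log2 fold change there was 0.11 (edgeR adjusted p = 0.716). The SIN3A call was lost without DMSO replicate 1 (limma adjusted p = 0.134).

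Of 2 reported ZNF703 protein partners tested, DCAF7, a WD40 scaffold, rose by 0.16 (edgeR adjusted p = 0.00187) but turned to -0.035 with ERCC scaling (0.012 without STM2457 replicate 4). PHB2, a prohibitin, fell by 0.14 (edgeR adjusted p = 0.000133).

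Genes reported elsewhere to be repressed or controlled by NET proteins were read as a list. Of 4 tested, 1 rose and 0 fell by edgeR, with the same counts by DESeq2 and at an unadjusted p under 0.05. Over all genes tested, edgeR called 26.2% higher and 21.6% lower. TGFBR2, a TGF-β receptor that ZNF703 has been reported to repress in breast cells, was at 18.4 ± 0.809 CPM in STM2457 and 14.5 ± 0.639 CPM in DMSO (SD, n = 4 each), a rise of 0.34 (SE 0.050, edgeR adjusted p = 9.21e-05). Its log2 fold change was 0.14 with ERCC scaling (edgeR adjusted p = 0.0816). GATA3, a luminal transcription factor reported to be lowered by mouse Zfp503, was at -0.0040 in log2 (SE 0.073, edgeR adjusted p = 0.970). CDH1, which encodes E-cadherin, was at -0.15 (SE 0.094, edgeR adjusted p = 0.200), and PAX2, a target in the zebrafish and mouse eye, at -0.0016 (SE 0.14, edgeR adjusted p = 0.994). With ERCC scaling CDH1 (-0.35, edgeR adjusted p = 0.00539) and GATA3 (-0.20, edgeR adjusted p = 0.0452) passed as lower. Among all genes, ERCC scaling called 12.1% higher and 47.1% lower, with the median gene at -0.19. Without STM2457 replicate 4, ERCC scaling no longer called GATA3 (edgeR adjusted p = 0.0779) and called TGFBR2 higher (edgeR adjusted p = 0.0398). In footprints, 0 of the 4 passed by limma, 0 by edgeR on recovered reads and 0 at an unadjusted p under 0.05. Among all genes tested in footprints, limma called 9.59% higher and 6.13% lower.

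SP factors, which share the SP motif with NET proteins and bind GC boxes, were mostly higher. All 7 tested of 9 listed SP genes rose, where edgeR called 26.2% of all genes higher. Their median was 0.56 in log2, beside 0.0025 over all genes tested, and SP5 and SP7 did not pass the filter on low counts. SP1 measured 238, 230, 208 and 226 CPM in STM2457 replicates 1 to 4, against 142, 141, 133 and 135 CPM in DMSO replicates 1 to 4. The arms did not overlap, and all STM2457 libraries lay above all DMSO libraries for 24.9% of the genes tested. SP1 rose by 0.71 (SE 0.039, edgeR adjusted p = 1.45e-08). SP3 rose by 0.65, SP9 by 0.57 and SP2 by 0.38, with edgeR adjusted p of 2.72e-08, 1.73e-06 and 1.42e-06. With ERCC scaling 5 of the 7 were called higher and 0 lower, beside 12.1% and 47.1% of all genes.

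Developmental C2H2 zinc finger factors, a list of 26 transcription factors, rose almost throughout. The list was drawn up with earlier results of these data known, and it also holds broadly expressed regulators such as YY1. Of 23 tested, 21 rose and 0 fell, where edgeR called 26.2% of all genes higher and 21.6% lower. The median was 0.67 in log2, beside 0.0025 over all genes tested, and SALL4 (0.065) and GLI1 (-0.27) did not pass. ERCC scaling left 19 called higher and 1 called lower (median 0.48), beside 12.1% and 47.1% of all genes. By comparison, 212 of the 394 other tested ZNF genes rose and 44 fell (median 0.21), and with ERCC scaling 115 rose and 108 fell.

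The largest of these increases stayed below those of ZNF503 and ZNF703, which were chosen for their large RNA increases in this same contrast. ZIC2, a factor of forebrain patterning, measured 298, 287, 317 and 290 CPM in STM2457 replicates 1 to 4, against 105, 101, 109 and 116 CPM in DMSO replicates 1 to 4, a rise of 1.47 (SE 0.043, edgeR adjusted p = 7.27e-11). SNAI2, a repressor of epithelial genes, rose by 1.27 (SE 0.028, edgeR adjusted p = 9.07e-12), SALL1, a kidney and limb factor, by 1.18 (SE 0.034, edgeR adjusted p = 6.34e-11), and YY1, a broadly expressed regulator, by 0.66 (SE 0.021, edgeR adjusted p = 1.38e-10). For all 4, named for the smallest RNA p of the list, the STM2457 libraries lay above the DMSO libraries. The same held for 24.9% of all genes tested.

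In footprints, where limma called 9.59% of genes higher and 6.13% lower, 12 of 19 tested developmental factors and 3 of 6 tested SP genes rose, and none of either list was called lower by limma, by edgeR on recovered reads or at an unadjusted p under 0.05. ZIC2 footprints rose by 1.48 and SNAI2 footprints by 1.33. In efficiency, limma called 0.229% of all genes higher and 0.807% lower, and 0 of the 19 developmental factors and 0 of the 6 SP genes. At an unadjusted p under 0.05, 0 developmental factors were higher and 2 lower and 0 SP genes moved, beside 1025 of the 10906 genes tested in either direction. The edgeR interaction called 0 developmental factors and 1 SP gene lower, beside 124 genes higher and 301 lower among all genes.

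**Figure D5:**
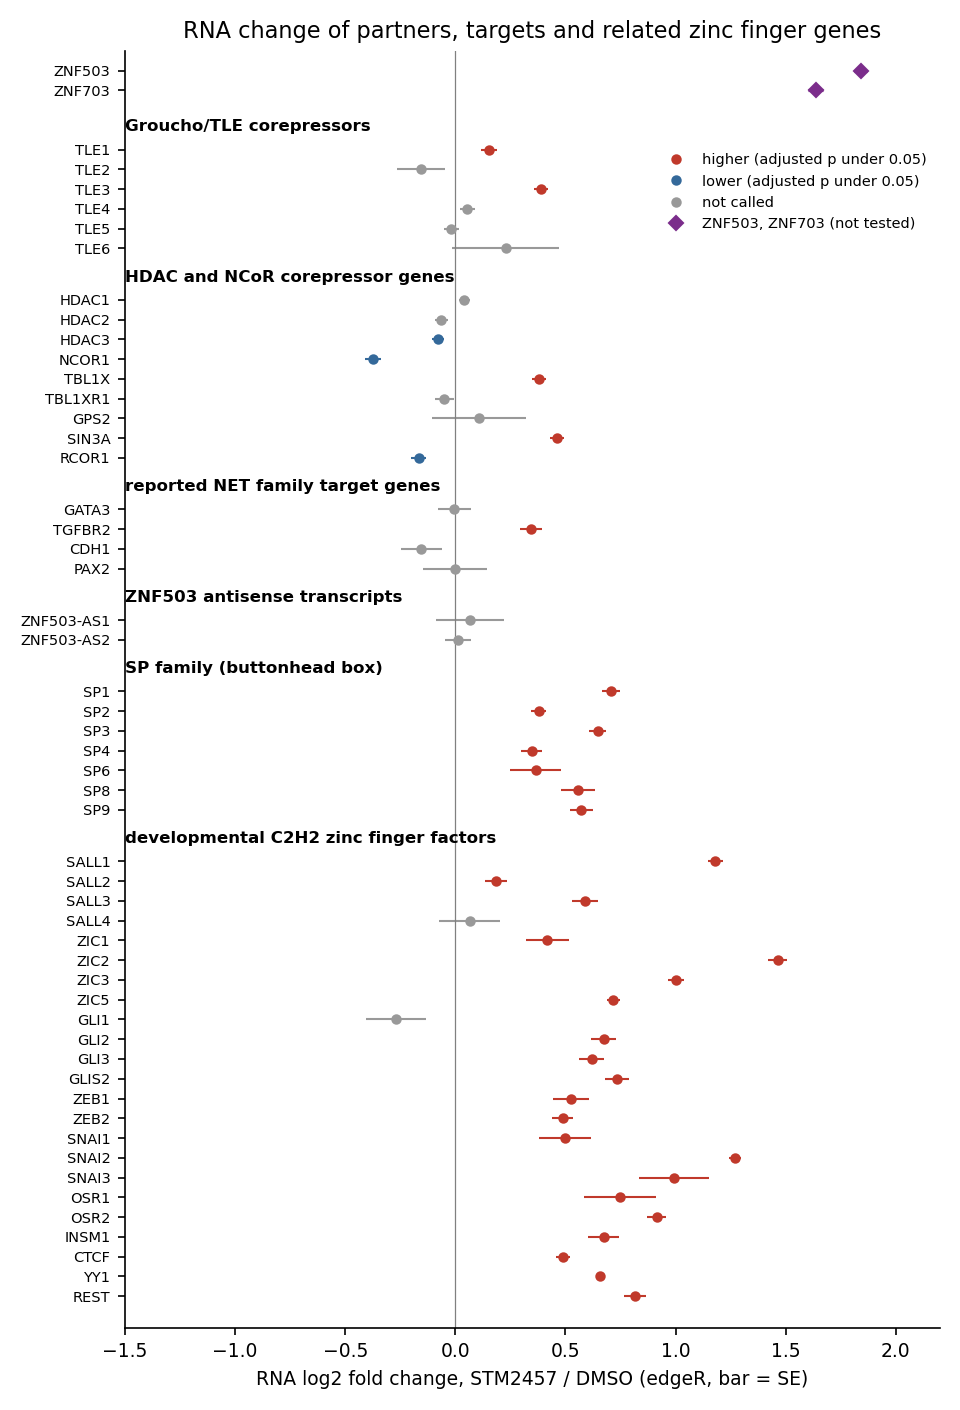
RNA log2 fold change, STM2457 over DMSO (horizontal axis, edgeR, whiskers are the SE), of ZNF503 and ZNF703 and of each tested gene of the corepressor, target, antisense, SP and developmental zinc finger lists. The SP genes shown and 21 of 23 developmental factors were called higher and lie right of 0. Of the other developmental factors, SALL4 lies at 0.065 and GLI1 at -0.27. Corepressors and targets lie between -0.37 (NCOR1) and 0.46 (SIN3A), and the members stand at 1.84 and 1.64.

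Genes with the most similar RNA profile were sought by the root mean square difference in log2 CPM, centred on the DMSO mean, over the 8 RNA-seq libraries. Closest to ZNF503 was ERRFI1, a feedback inhibitor of the EGF receptor, at a difference of 0.038, followed by DEPP1 (0.120), 2 genes with an Ensembl ID in place of a symbol and CNTF (0.128). Closest to ZNF703 were LATS2 (0.048), a Hippo pathway kinase, the m6A reader YTHDF2 (0.056), MED18 (0.075), MAD2L1BP (0.076) and HOXD13 (0.076). ZNF703 was the 8th closest gene to ZNF503, and ZNF503 the 23rd closest to ZNF703, at a difference of 0.148. The measure takes in the treatment change itself, so it lists genes of like size of change.

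Not all of these shared the footprint change. ERRFI1 footprints rose by 1.20 against 1.82 for its RNA, and its log2 change of efficiency was -0.54 (limma adjusted p = 0.0542). It passed in the edgeR interaction (adjusted p = 0.00166), and the adjusted p of ERRFI1 over all alternatives ran from 0.000387 to 0.318. LATS2 RNA rose by 1.58, while LATS2 had 26 and 17 footprint reads in STM2457 libraries and 14 and 25 in DMSO libraries, a footprint log2 fold change of 0.13 (SE 0.43, limma adjusted p = 0.892). Leaving out 1 footprint library moved this LATS2 value between -0.57 (without DMSO replicate 1) and 0.83 (without DMSO replicate 2). The log2 change of LATS2 efficiency was -1.39 (limma adjusted p = 0.0753), the edgeR interaction called it (adjusted p = 0.0415), and the adjusted p over all alternatives ran from 0.00829 to 0.706. YTHDF2 footprints rose by 1.69 and its RNA by 1.60.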

How the data were processed

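The deposited RNA-seq files hold raw counts per gene and per ERCC sequence (92), as the authors deposited them. The series table holds, per the file headers, a normalized signal per library, the authors' efficiency as a ratio and its change on a log2 scale. GRCh38.p12, Subread 2.0.3, featureCounts, STAR 2.7.3a, SAMtools 1.10, bedtools 2.29.2, DESeq2, UMI-tools 1.1.2 and FastQC 0.11.9 are named, with no role or order, per the submitters' processing notes.

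RNA tests used R 4.3.3 and edgeR 4.0.16 (quasi-likelihood, TMM, filterByExpr, Benjamini-Hochberg adjusted p under 0.05), without ERCC sequences; the SE is the absolute log2 fold change over the square root of F. CPM used TMM factors, and log2 CPM a prior count of 2. Footprints were tested with limma 3.58.1 on log2(signal + 1), so fold changes are on that scale and understate low genes, keeping genes whose recovered reads averaged 10 or more per library. All values (100%) of the footprint columns were within 0.1 of a whole read, and edgeR on these reads called 1112 genes higher and 607 lower, against 1046 and 669 by limma. Efficiency was the interaction of assay and treatment in limma with a weight per assay. Alternatives included DESeq2 1.42.0. The tests were tested on simulated data.

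The members and gene lists were chosen with earlier results of these data known. Named were both members, all genes of lists of up to 4, otherwise the 4 with the smallest RNA p plus TLE5, HDAC1 and HDAC2, the 3 nearest genes on each side, and the 5 genes of most similar profile. A further listed gene is not reported here and is left out of the list counts. GPS2, SALL4, GLI1, SP5 and SP7 were named after their values were seen, as were ZNF329, ZNF628, ZNF48, ZNF460, ZNF483, ZNF892 and ZNF280C.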

Additional observations from a re-analysis of the deposited data

Results flagged for a closer look

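In 4 of 84 groups of 4 RNA-seq libraries tested (each named gene in each arm), 1 library stood apart from the other 3 by more than Dixon's 95% critical value, a rate near the 1 in 20 that chance gives. ZNF703 was at 415 CPM in DMSO replicate 4, against a mean of 381 CPM in the other 3 DMSO libraries. Without that library the ZNF703 log2 fold change was 1.66. DCAF7 was at 224 CPM in STM2457 replicate 1, against 204 CPM in the other 3. PAX2 was at 5.85 CPM in DMSO replicate 4, against 4.33 CPM in the other 3. ZNF503-AS1 was at 1.56 CPM in STM2457 replicate 1, against 1.17 CPM in the other 3. The cause of these differences was not tested.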

How the results depend on the processing

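Over all alternatives run, the log2 fold changes of ZNF503 and ZNF703 lay at 1.65 to 1.86 and 1.44 to 1.68 in RNA, 1.61 to 1.90 and 1.43 to 1.77 in footprints, and -0.15 to 0.14 and -0.11 to 0.24 in efficiency. With ERCC scaling they were 1.65 and 1.44 in RNA, and 1.68 and 1.47 when STM2457 replicate 4 was also left out, an alternative chosen after seeing the data. ZNF703 was at 1.58 with replicates 3 and 4 only. ERCC scaling gave 2159 genes higher and 8383 lower (2464 and 7517 without STM2457 replicate 4), against 4669 and 3842 with TMM, and the listed genes called lower became 14 (10 without that library) in place of 4. It turned TLE1 to -0.039 (0.013 without that library), TLE4 to -0.14 (-0.088), HDAC1 to -0.15 (-0.11), DCAF7 to -0.035 (0.012) and ZNF503-AS2 to -0.18 (-0.12).

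Leaving out 1 library at a time gave 742 to 844 genes higher in footprints and 262 to 620 lower (1046 and 669 with all), with 1 to 3 of the listed genes lower. Efficiency calls numbered 25 higher and 88 lower. They became 15 higher without a filter, 339 and 486 with a spread shared by both assays, 124 and 301 with the edgeR interaction, and 7 to 12 higher and 30 to 89 lower without 1 footprint library. A listed gene was called lower in efficiency in 1 case each with the shared spread and the edgeR interaction. Where a library left out leaves an arm with 1 sample, that sample is assumed to vary like the others.

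The replicate block left the members at 1.84 and 1.64 in RNA and changed the call of HDAC2 RNA (edgeR adjusted p = 0.0172). In efficiency with RNA-seq replicates 1 and 2, ERRFI1 passed both without the block (limma adjusted p = 0.0421) and with it (0.0443), and LATS2 only with it (0.0391, against 0.0529 without). Deviations of same-numbered RNA-seq libraries correlated at 0.0763 to 0.227, those of other numbers at -0.256 to 0.275, and those of Ribo-seq libraries at 0.0064, so the numbers were not taken to pair samples. All 8 correlations within replicates 1 and 2 or within 3 and 4 were positive (0.0763 to 0.275) and all 8 across these sets negative (-0.256 to -0.085), although the labels name no batch. The cause of each change was not tested.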
